A study of Mus musculus with 36 samples.

Results

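Lung RNA was followed for 10 genes of matrix turnover after mice received a single dose of graphene oxide, sheets of oxidised carbon, through the nose. The genes are the tissue inhibitors of metalloproteinases Timp1, Timp2 and Timp3, the matrix metalloproteinases Mmp2, Mmp3, Mmp11, Mmp14, Mmp15 and Mmp19, and the secreted protease Adamts1. They were found by gene name and Ensembl identifier among 46078 genes of the deposited count table. All 10 passed a filter on low counts, applied over the 12 groups together, that left 16903 genes.

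The mice were wild type female C57BL/6, a common inbred laboratory strain. Exposed mice received 50 μg of graphene oxide in 5% dextrose, as material US, S or L, in a study of how the lateral size of the sheets matters. The labels do not spell out these letters. Mice marked D received the 5% dextrose carrier with 0 μg. US, S, L and D lungs were taken at day 1, day 7 and day 28, at 9, 10 and 13 weeks of age, which gives 12 groups of 3 libraries and 36 libraries in all. Pieces of every lobe were used after the large airways had been removed, RNA of an integrity number below 8 was not used, and the libraries were stranded and made from polyadenylated RNA. Libraries are not tied to animals by the labels. In the fit of all 36 libraries each p-value and SE rests on a spread per gene shared over the 12 groups. It is not the spread of the compared groups alone, and it may be technical in part.

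Matrix metalloproteinases are zinc enzymes that cut collagens, proteoglycans and other proteins around cells, and most are made as inactive precursors. Tissue inhibitors bind the active site of these enzymes and block it. In the lung, fibroblasts, smooth muscle, epithelium and macrophages make different members of both families, and the balance between enzyme and inhibitor is known for its part in inflammation, repair and fibrosis. Messenger RNA shows neither precursor activation nor bound inhibitor.

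The lowest total count was 16154696, the deepest library (S day 7 replicate 2) had 80566751, and the other 35 had at most 23808264. Markers of lung epithelium were high in every library: Sftpc, a surfactant protein of alveolar type 2 cells, had at least 10660 CPM, and Ager of alveolar type 1 cells at least 2037 CPM. CPM is the count of a gene relative to the scaled total of its library. US day 1 replicate 1 stood apart, with the highest or the lowest level of the 36 libraries for 26.6% of the genes tested. It was the extreme library for 6 of the 10 matrix genes: it had the highest level of Timp1, Timp3, Mmp3 and Mmp19 and the lowest of Mmp2 and Mmp11. Fitted values of US day 1 over D day 1 are given with and without it. S day 1 replicate 3 was extreme for 18% of the genes tested and L day 7 replicate 1 for 20.5%.

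The genes lie on several chromosomes, at the following positions in the mouse build GRCm38. Timp1 (ENSMUSG00000001131, chrX:20870166-20874735, plus strand) encodes a secreted inhibitor that inflammatory cytokines induce. Timp2 (ENSMUSG00000017466, chr11:118301069-118355740, minus strand) encodes an inhibitor that also helps Mmp14 to activate the precursor of Mmp2. Timp3 (ENSMUSG00000020044, chr10:86300372-86349506, plus strand) encodes the inhibitor that stays bound to the matrix and also blocks ADAM and ADAMTS proteases. Mmp2 (ENSMUSG00000031740, chr8:92827328-92853417, plus strand) encodes gelatinase A, and Mmp3 (ENSMUSG00000043613, chr9:7445822-7455972, plus strand) encodes stromelysin 1, which can activate other precursors. Mmp11 (ENSMUSG00000000901, chr10:75923222-75932502, minus strand) encodes stromelysin 3, which furin activates inside the cell. Mmp14 (ENSMUSG00000000957, chr14:54431612-54441265, plus strand) and Mmp15 (ENSMUSG00000031790, chr8:95352268-95374293, plus strand) encode membrane-bound metalloproteinases. Mmp19 (ENSMUSG00000025355, chr10:128790953-128800824, plus strand) encodes a secreted metalloproteinase, and Adamts1 (ENSMUSG00000022893, chr16:85793827-85803113, minus strand) encodes a protease that cuts the proteoglycans aggrecan and versican.

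In the GENCODE annotation Timp1 lies inside Syn1 and Timp3 inside Syn3, both on the opposite strand. Timp3 shares 1733 exonic bases with overlapping genes, Mmp11 shares 155, Mmp19 shares 789 and Timp1 shares 0. How the counting treated strand is not given in the sources used here. Reads of such stretches therefore cannot be apportioned with certainty. Syn1 averaged 0.929 TPM and Syn3 0.582 TPM over the 36 libraries, while Chchd10, which overlaps Mmp11, averaged 56.1 TPM and Tmem198b, which overlaps Mmp19, 10.3 TPM. TPM is a level per transcript length with a common total for all libraries.

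Sequence upstream of the RefSeq start is shown for Timp1, Timp3 and Mmp3, because the levels of these genes went together across libraries. RefSeq promoter windows in the build GRCm38.p6 matched 8 of the 10 genes, all but Mmp2 and Mmp19. The lines give the 250 bases before each start, 5′ to 3′ on the plus strand, with matches to AGGAAG (a core of ETS factor sites) and TGANTCA (a consensus for AP-1) on either strand in capitals. The windows are chrX:20869916-20870165, chr10:86300162-86300411 and chr9:7445572-7445821.
Timp1: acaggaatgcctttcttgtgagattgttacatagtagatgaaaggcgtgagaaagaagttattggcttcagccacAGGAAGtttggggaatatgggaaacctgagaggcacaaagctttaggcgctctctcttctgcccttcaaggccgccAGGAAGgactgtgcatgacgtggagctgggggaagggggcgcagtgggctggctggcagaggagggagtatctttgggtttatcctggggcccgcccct
Timp3: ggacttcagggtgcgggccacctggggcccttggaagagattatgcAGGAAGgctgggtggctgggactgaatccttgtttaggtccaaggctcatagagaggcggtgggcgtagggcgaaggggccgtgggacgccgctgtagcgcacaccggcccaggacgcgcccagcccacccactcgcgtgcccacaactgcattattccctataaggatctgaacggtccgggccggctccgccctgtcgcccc
Mmp3: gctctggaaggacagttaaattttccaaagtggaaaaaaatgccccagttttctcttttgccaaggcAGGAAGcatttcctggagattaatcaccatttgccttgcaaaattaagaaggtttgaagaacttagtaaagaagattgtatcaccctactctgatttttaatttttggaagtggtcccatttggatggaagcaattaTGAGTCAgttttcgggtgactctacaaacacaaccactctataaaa
AGGAAG stood in 4 of the 8 windows matched, those of Timp1, Timp3, Mmp3 and Mmp14, and 35.4% of all 32851 promoter windows of 300 bases (250 before and 50 after the start) hold it. TGANTCA stood in the Mmp3 window alone among the 8, with its first base 46 bases before the start, and 7.81% of all windows hold it. Such a match is a string of letters and no measured binding site.

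Among D lungs the matrix-bound inhibitor Timp3 had the highest level per length, with a mean of 379 ± 84.1 TPM (SD, n = 9 libraries over 3 days). Timp2 followed with 287 ± 47.9 TPM and Mmp2 with 101.4 ± 27.3 TPM. Mmp15 averaged 63.3 ± 5.64 TPM, Mmp14 57.1 ± 10.6 TPM and Adamts1 51.9 ± 11.3 TPM. The lower end of the order was made of Mmp3 (39.5 ± 10.4 TPM), Mmp11 (31.8 ± 3.59 TPM), Timp1 (23.1 ± 7.43 TPM) and Mmp19 (14.0 ± 3.19 TPM). Neighbours in this order overlapped in range across the D libraries except Timp2 (202 to 337 TPM) and Mmp2 (59.2 to 142 TPM).

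**Figure D1:**
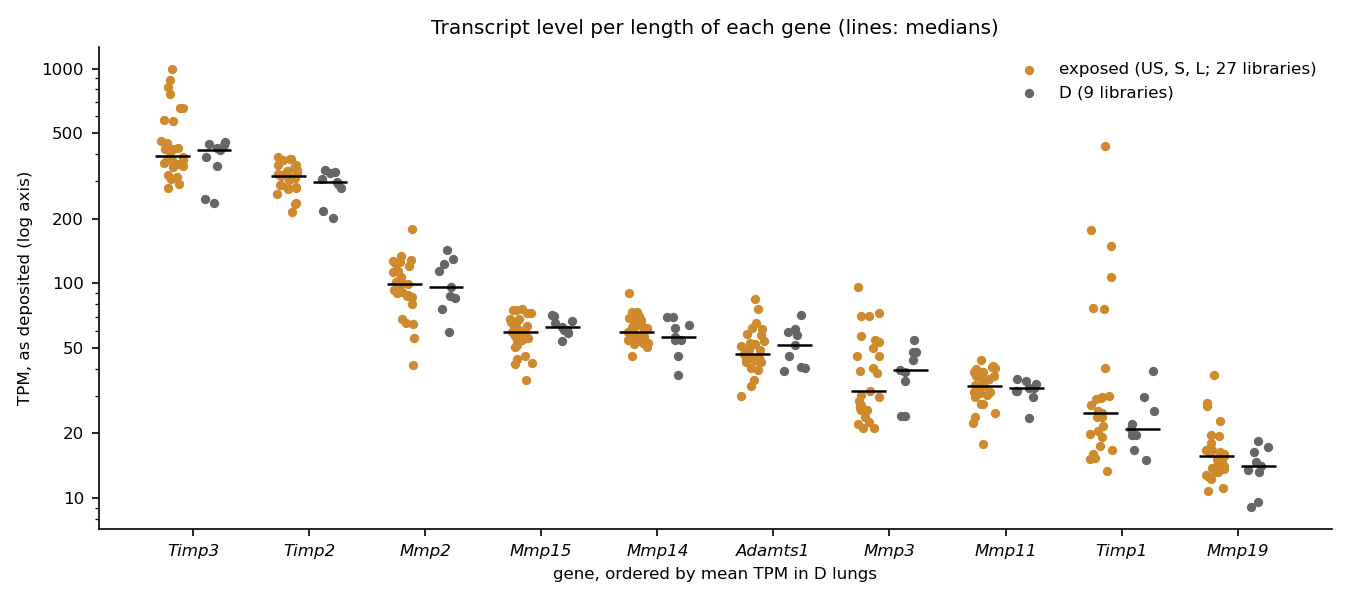
Deposited TPM of each gene (log axis) in the 27 exposed libraries and, to the right of them, in the 9 D libraries, with points for libraries and lines for medians. Timp3 and Timp2 lie above the other genes in D lungs, and Timp1 has the widest spread, with 435 TPM in its highest library.

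No gene of the 10 passed an adjusted p of 0.05 in any of the 9 comparisons with D of the same day in edgeR's quasi-likelihood test, in 1 fit of the 36 libraries with Benjamini-Hochberg adjustment across the whole gene table. The share of all genes that passed was small on day 1, at 0.0887% for US, 0.0473% for S and 0.0237% for L. It was 2.09% for US, 0.45% for S and 0.154% for L on day 7, and 0.0237% for US, 0.237% for S and 2.15% for L on day 28. An unadjusted p under 0.05 was reached by 16 of the 90 tests of these genes against D, and by 12.7% of such tests over all genes. Those with the smallest p were Timp1 and Timp3 in US and S day 1 lungs, Timp3 in US day 7 lungs, Adamts1 in US day 28 lungs and Mmp3 in L day 28 lungs. In whole-lung RNA, a difference in the number of cells that make a transcript and a difference in RNA per cell cannot be told apart.

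**Figure D2:**
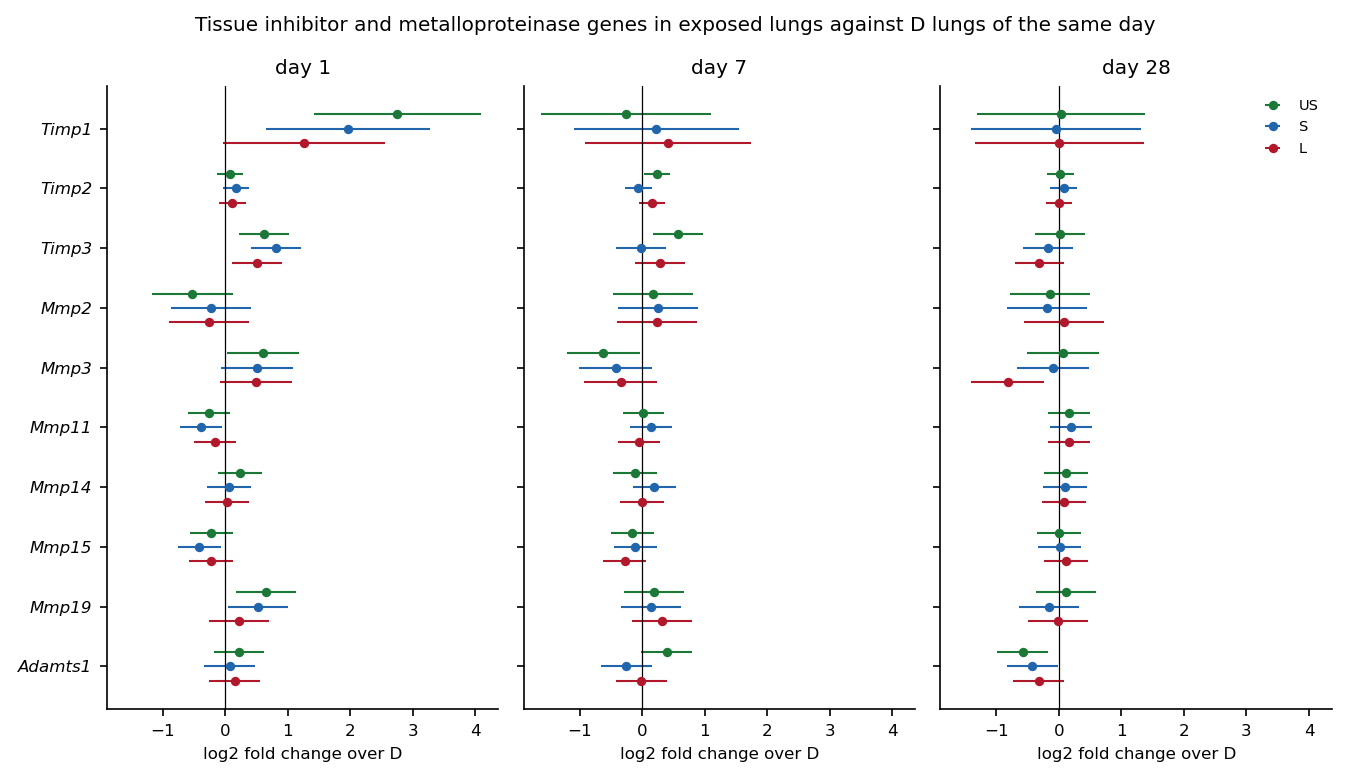
Log2 fold change of each gene in US, S and L lungs over D lungs of the same day, as points with 95% intervals from the edgeR fit, 1 panel per day. Timp1 on day 1 has the largest values and the widest intervals, and the intervals of most other genes include 0.

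Timp1 had 204, 19.4 and 33.3 CPM in US day 1 lungs, against 18.1, 6.68 and 13.4 CPM in D day 1 lungs. All 3 US libraries lay above all 3 D libraries, although the lowest US value was close to the highest D value. The fitted log2 fold change was 2.75 ± 0.65 (SE), a 6.73-fold higher level with an interval of 1.42 to 4.08 on the log2 scale, and the adjusted p was 0.0581. Without US day 1 replicate 1 the log2 fold change was 1.06 with an adjusted p of 0.69.

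The other sizes on day 1 gave Timp1 levels that spread widely. S day 1 lungs had 6.45, 77.8 and 64.3 CPM, so that 1 library lay below every D library and the others far above them, with a log2 fold change of 1.96 ± 0.64 and an adjusted p of 0.155 in edgeR. L day 1 lungs had 33.7, 45.5 and 12.1 CPM, with a log2 fold change of 1.26 ± 0.64, an interval of -0.04 to 2.56 and an adjusted p of 0.978 in edgeR. The libraries of both groups overlapped those of D. By day 7 Timp1 had 6.06, 13.1 and 7.03 CPM in US, 12.6, 11.6 and 12.4 CPM in S, 16.4, 12.1 and 12.9 CPM in L, and 11.9, 10.5 and 8.80 CPM in D lungs. The 3 L libraries lay above the highest D library by a narrow margin, and US and S overlapped D. By day 28 the highest Timp1 level in any exposed lung was 13.9 CPM, against 11.7 CPM in the highest D lung, and all groups overlapped. Over all groups, Timp1 had a spread within groups (SD 0.89 on the log2 scale) above that of 99.8% of the 12135 genes with a mean of at least 5 CPM.

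Neutrophil markers were counted beside this gene, since US day 1 replicate 1 was high in both. The 9 listed markers, all detected in every library, summed to 821, 212 and 287 CPM in US day 1 lungs, against 152, 168 and 209 CPM in D day 1 lungs. They summed to 114.8, 236 and 213 CPM in S day 1 lungs and to 204, 222 and 200 CPM in L day 1 lungs. The 10 listed T and NK cell markers summed to 35.9 to 118.1 CPM in US, 61.9 to 116.2 CPM in S, 64.2 to 157 CPM in L and 121.1 to 128.6 CPM in D day 1 lungs. The part of either cell type in the Timp1 levels was not tested.

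Timp3 had 2505, 998 and 1350 CPM in US day 1 lungs, 1540, 1931 and 2059 CPM in S day 1 lungs and 1569, 1730 and 1150 CPM in L day 1 lungs, against 1115, 911 and 1119 CPM in D day 1 lungs. Every S library and every L library lay above every D library, while 1 US library did not. The log2 fold change was 0.63 ± 0.20 for US (adjusted p 0.116 in edgeR), 0.81 ± 0.20 for S (0.111) and 0.50 ± 0.20 for L (0.856). The S interval ran from 0.41 to 1.22, a 1.76-fold higher level. Without US day 1 replicate 1 the US value was 0.17. The 7 mesothelial markers, listed for the cells that line the lung surface, summed to 771 to 779 CPM in US, 646 to 699.8 CPM in S and 689 to 808 CPM in L day 1 lungs, against 582 to 617 CPM in D day 1 lungs. Over the 36 libraries Timp3 had an r of 0.63 with their score, and 0.19 with group means removed. Other marker scores gave values of 0.77 and 0.52 for alveolar type 1 cells and 0.54 and 0.67 for neutrophils. Those for T and NK cells were -0.79 and -0.86, and those for B and plasma cells -0.80 and -0.84. The part of any of these cells in the Timp3 levels was not tested.

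Timp3 on day 7 had 1088, 935 and 1356 CPM in US lungs, 754, 742 and 754 CPM in S lungs and 913, 961 and 907 CPM in L lungs, against 681, 719 and 877 CPM in D lungs. The US and the L libraries lay above all D libraries, and the S libraries lay among them. The log2 fold changes were 0.57 ± 0.20 for US (adjusted p 0.0843 in edgeR), -0.02 ± 0.20 for S and 0.29 ± 0.20 for L. On day 28 Timp3 had 1066, 1108 and 1066 CPM in US lungs, 934, 954 and 954 CPM in S lungs and 890, 811 and 880 CPM in L lungs, against 1057, 1086 and 1059 CPM in D lungs. On that day the S and the L libraries lay below all D libraries. The log2 fold changes were -0.17 ± 0.20 for S and -0.31 ± 0.20 for L, with adjusted p of 0.807 and 0.412 in edgeR. These SE rest on the spread shared over the 12 groups. The SD of Timp3 was 11.7 CPM in S, 42.7 CPM in L and 16.2 CPM in D day 28 lungs, and 788 CPM in US day 1 lungs.

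Timp2 was the steadiest of the 3 inhibitors, with 461 CPM in its lowest and 714 CPM in its highest library. Its S day 1 libraries (714, 704 and 652 CPM) lay above all D day 1 libraries (646, 539 and 651 CPM) by a narrow margin, with a log2 fold change of 0.17 ± 0.10. In US day 7 lungs Timp2 had 595, 576 and 648 CPM, against 495, 464 and 582 CPM in D day 7 lungs, a log2 fold change of 0.24 ± 0.10 with an adjusted p of 0.148 in edgeR. That interval ran from 0.03 to 0.45, and those of the other 8 comparisons of Timp2 with D included 0.

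Groups that did not overlap were counted over the 10 genes and over all genes tested. On day 1 the exposed libraries lay all above D for 1 of the 10 in US (8.71% of all genes), 2 in S (17.2%) and 1 in L (4.73%), and all below D for 1 in L (4.44%). An unadjusted p under 0.05 was reached by 4 genes in US (16.1% of all genes), 5 in S (21%) and 1 in L (4.94%).

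**Figure D3:**
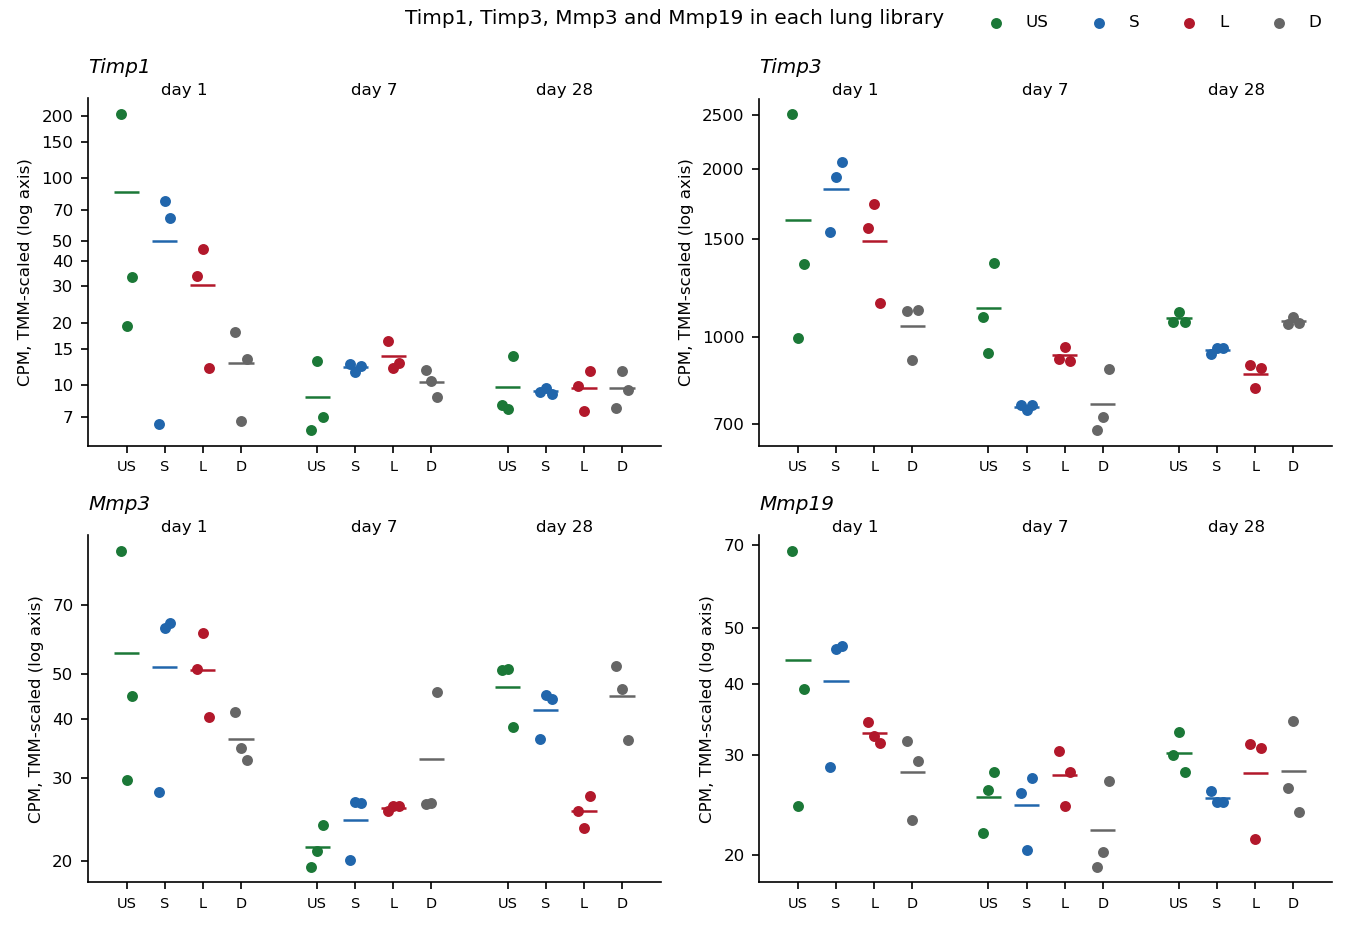
CPM of Timp1, Timp3, Mmp3 and Mmp19 (log axis) in each library by day, with US, S, L and D from left to right, points for libraries and lines for group means. US day 1 replicate 1 is the highest point in all 4 panels, and Timp1 on day 1 has a wider spread in the exposed groups than in D.

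Mmp3 and Mmp19 had their highest libraries on day 1 as well. Mmp3 had 91.5, 29.7 and 44.8 CPM in US, 28.1, 62.5 and 64.3 CPM in S and 51.1, 61.1 and 40.5 CPM in L day 1 lungs, against 41.5, 34.8 and 32.8 CPM in D day 1 lungs. Each exposed group overlapped D, and the log2 fold changes were 0.61 ± 0.28 for US (adjusted p 0.287 in edgeR), 0.50 ± 0.28 for S and 0.49 ± 0.28 for L. Mmp19 had 68.5, 24.3 and 39.2 CPM in US, 28.5, 46.1 and 46.7 CPM in S and 34.3, 32.4 and 31.4 CPM in L day 1 lungs, against 31.7, 23.0 and 29.3 CPM in D day 1 lungs. Its log2 fold changes were 0.65 ± 0.23 for US (adjusted p 0.17 in edgeR), 0.53 ± 0.23 for S (0.205) and 0.22 ± 0.23 for L. Without US day 1 replicate 1 the US values were 0.04 for Mmp3 and 0.19 for Mmp19.

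On the later days Mmp3 lay below D in part of the groups. On day 7 it had 19.4, 21.0 and 23.8 CPM in US, 20.1, 26.7 and 26.5 CPM in S and 25.6, 26.2 and 26.1 CPM in L lungs, against 26.4, 26.6 and 45.7 CPM in D lungs. The US and L libraries lay below all D libraries, although 2 of the 3 D values were within 1 CPM of the highest L value, and the US log2 fold change was -0.62 ± 0.29 with an adjusted p of 0.171 in edgeR. In L day 28 lungs Mmp3 had 25.5, 23.5 and 27.4 CPM, against 51.9, 46.5 and 36.1 CPM in D day 28 lungs. The 2 groups did not overlap, and the log2 fold change was -0.82 ± 0.29, a 1.76-fold lower level with an interval of -1.40 to -0.23 and an adjusted p of 0.137 in edgeR. US day 28 lungs had 51.1, 51.1 and 38.5 CPM and S day 28 lungs 36.4, 45.1 and 44.3 CPM, both among the D values.

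Clock gene and macrophage marker levels were set beside these values. A clock score was the mean of 10 genes in phase with Dbp less that of 5 genes in phase with Arntl. Each gene entered as its log2 level less its own mean over the 36 libraries. On day 7 the score ran from 1.57 to 2.27 in US, from -0.63 to -0.25 in S, from 1.93 to 2.33 in L and from -1.36 to -0.08 in D lungs. US and L lay apart from D on that day in this score, in Mmp3 and in Timp3, while S overlapped D in all 3. Over the 36 libraries the score had an r of -0.49 with Mmp3 and -0.26 with Timp3. With group means removed the r was -0.28 with each of them, and 0.74 with Mmp2. The 2 parts of the score differed. The 5 genes in phase with Arntl had r of 0.55 with Mmp3 and 0.02 with Timp3, and 0.68 and 0.49 with group means removed. The 10 genes in phase with Dbp had -0.32 and 0.28, and -0.14 and 0.07 with group means removed. On day 1 the score ran from -0.35 to 0.04 in US and from 0.14 to 1.85 in S lungs. It ran from 0.45 to 2.14 in L and from -0.40 to -0.09 in D day 1 lungs. On day 28 the score ran from -2.10 to -1.92 in US, from -1.26 to -0.74 in S, from 0.43 to 0.88 in L and from -2.31 to -2.09 in D day 28 lungs. Summed CPM of 9 markers of particle-laden macrophages ran from 627 to 790 in US, 763 to 809.9 in S, 1304 to 2774 in L and 533 to 679 in D day 28 lungs. The part of either in the Mmp3 and Timp3 levels was not tested.

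Adamts1 ranged from 90.6 to 119.1 CPM in US and had 131.6, 116.2 and 106.6 CPM in S and 143, 104.3 and 132.6 CPM in L day 28 lungs, against 179, 157 and 140 CPM in D day 28 lungs. The US and S libraries lay below all D libraries, and 1 L library lay above the lowest D value. The log2 fold changes were -0.58 ± 0.20 for US (adjusted p 0.595 in edgeR), -0.42 ± 0.20 for S (0.476) and -0.32 ± 0.20 for L (0.402). D lungs themselves had 116.1, 92.8 and 133.1 CPM of Adamts1 on day 1 and 114.1, 119.9 and 132.6 CPM on day 7, all below the lowest day 28 value. On day 7 Adamts1 had its highest library of all in US, where the values were 201, 128.9 and 152 CPM.

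The gelatinase Mmp2 had a spread within groups (SD 0.42 on the log2 scale) above that of 96.8% of the genes with a mean of at least 5 CPM. It had 67.3, 167 and 98.4 CPM in US, 191, 133.3 and 83.2 CPM in S and 131.6, 94.8 and 175 CPM in L day 1 lungs, against 154, 131.9 and 193 CPM in D day 1 lungs. Its log2 fold changes on day 1 were -0.53 ± 0.31 for US, -0.23 ± 0.31 for S and -0.26 ± 0.31 for L, and no interval left out 0. The US value was -0.27 without US day 1 replicate 1. Its 6 intervals on the later days included 0 as well, and the widest of all 9 reached from -1.17 to 0.12.

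Mmp11 and Mmp15 both had their lowest libraries on day 1. Mmp11 had 26.2, 46.6 and 44.9 CPM in US, 44.9, 34.3 and 28.3 CPM in S and 40.8, 38.8 and 46.4 CPM in L day 1 lungs, against 49.3, 47.2 and 44.4 CPM in D day 1 lungs. Mmp15 had 100.2, 154 and 111.6 CPM in US, 149, 93.2 and 77.1 CPM in S and 103.1, 127.6 and 132.9 CPM in L day 1 lungs, against 137, 134.3 and 154 CPM in D day 1 lungs. Only the L libraries of Mmp15 were all below D, and S had the lowest fitted values, with log2 fold changes of -0.39 ± 0.17 for Mmp11 (adjusted p 0.195 in edgeR) and -0.41 ± 0.17 for Mmp15 (0.19). Without S day 1 replicate 3 these were -0.24 and -0.22. The US values were -0.26 ± 0.16 for Mmp11 and -0.22 ± 0.17 for Mmp15, and -0.04 and -0.10 without US day 1 replicate 1. On day 28 the S libraries of Mmp11 (52.0, 54.3 and 47.6 CPM) and its L libraries (52.1, 52.4 and 46.3 CPM) lay above the D libraries (46.2, 45.9 and 42.3 CPM), with log2 fold changes of 0.20 ± 0.16 for S and 0.17 ± 0.16 for L.

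Mmp14, the membrane-bound activator of Mmp2, had no interval against D that left out 0. Its log2 fold changes ran from -0.12 ± 0.17 in US day 7 to 0.23 ± 0.17 in US day 1 lungs, where it was 0.12 without US day 1 replicate 1. Its lowest library was in D day 7 lungs, at 89.9, 60.1 and 96.0 CPM, and its highest in S day 7 lungs, at 117.8, 82.8 and 81.6 CPM.

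**Figure D4:**
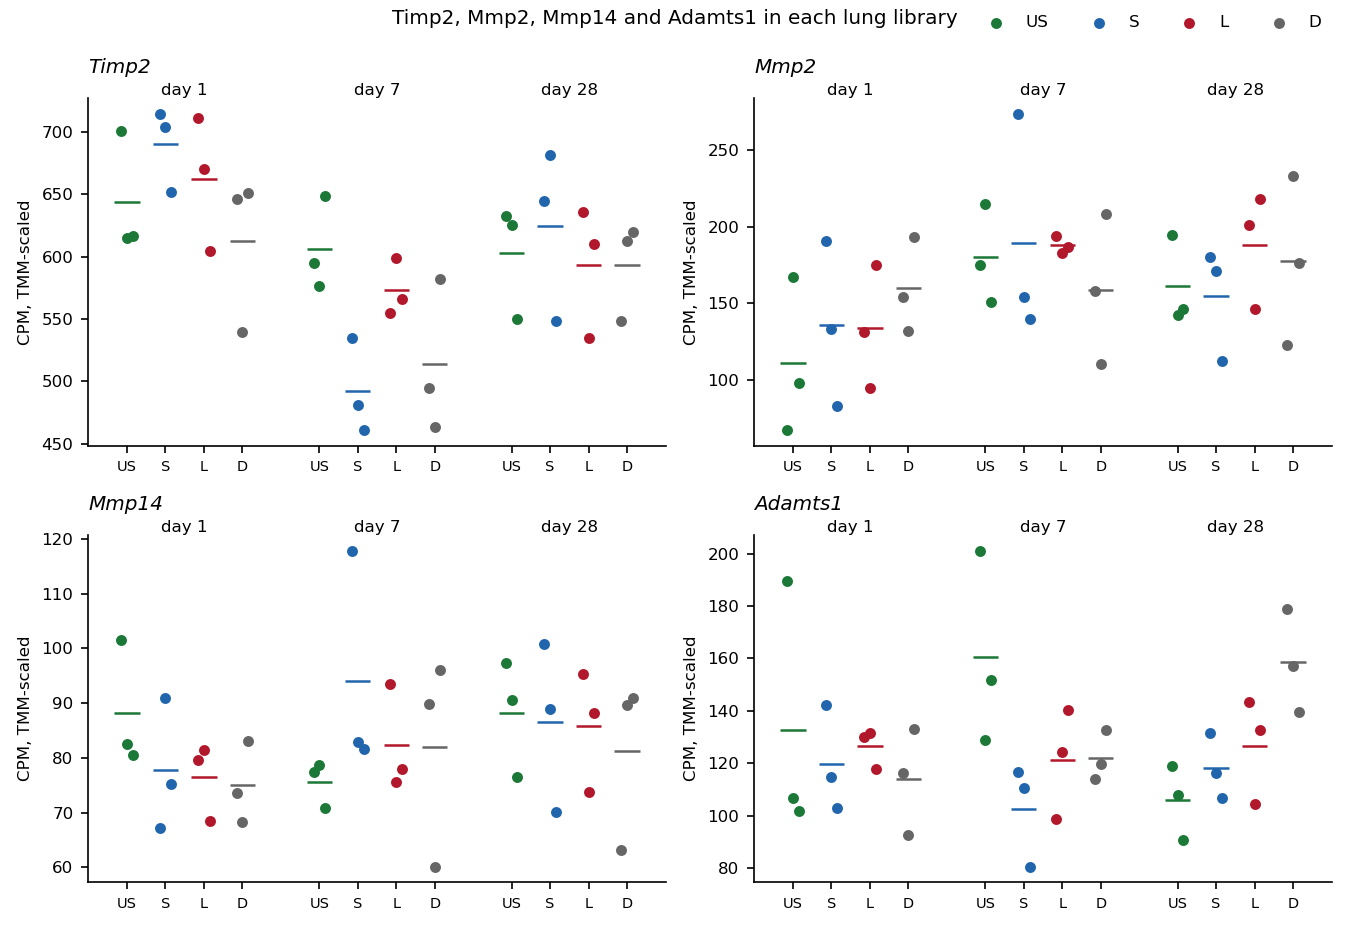
CPM of Timp2, Mmp2, Mmp14 and Adamts1 (linear axes that do not start at 0) in each library by day, with US, S, L and D from left to right, points for libraries and lines for group means. Most groups overlap D, and the US and S libraries of Adamts1 lie below the 3 D libraries on day 28.

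The same counts were made on day 7 and day 28. All exposed libraries lay above D for 1 gene in US day 7 (7.9% of all genes), 2 in L day 7 (4.56%), 1 in S day 28 (11.1%) and 1 in L day 28 lungs (14.6%). All lay below D for 1 gene in US day 7 (11.1%), 1 in L day 7 (2.98%), 1 in US day 28 (7.66%), 2 in S day 28 (11.9%) and 2 in L day 28 lungs (16.4%). An unadjusted p under 0.05 was reached on day 7 by 3 genes in US (25.7% of all genes), 0 in S (9.33%) and 0 in L (4.87%). On day 28 it was reached by 1 gene each in US (6.02%), S (9.87%) and L (16.7%).

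The summed level of the 3 inhibitors per length was set against that of the 6 Mmp genes studied here, which leave out other metalloproteinases. The sum of Timp1, Timp2 and Timp3 TPM over the sum of the 6 Mmp genes was 5.78, 2.43 and 3.41 in US, 3.20, 4.29 and 5.07 in S and 3.69, 4.04 and 2.55 in L day 1 lungs, against 2.70, 2.40 and 2.43 in D day 1 lungs. All S libraries lay above the D libraries, while the US and L libraries overlapped them. On day 7 the mean ratio was 2.66 ± 0.56 in US, 1.81 ± 0.264 in S and 2.24 ± 0.086 in L, against 1.96 ± 0.262 in D lungs. On day 28 the mean ratio was 2.33 ± 0.245 in US, 2.27 ± 0.262 in S and 2.04 ± 0.137 in L, against 2.29 ± 0.222 in D lungs (SD, n = 3 each). Mmp12, which the ratio leaves out, averaged 265 CPM in L and 7.52 CPM in D day 28 lungs. Timp1 made up 24.4% of the inhibitor sum in US day 1 replicate 1, and 5.53% and 7.82% in the other US day 1 libraries, against 4.80%, 2.17% and 3.61% in D day 1 lungs.

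The question of sheet size was asked directly by comparing the materials within each day. None of the 10 genes passed an adjusted p of 0.05 in these 9 comparisons in edgeR. Of all genes, 0.0177% passed for S against US on day 1, 0% for L against US and 0% for L against S. On day 7 the shares were 0.142% for S against US, 0.00592% for L against US and 0.154% for L against S. On day 28 they were 0% for S against US, 0.515% for L against US and 0.0651% for L against S. An unadjusted p under 0.05 was reached by 8 of the 90 tests, against 9.52% of the tests of all genes.

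Of these 8 tests, 5 were on day 7. Timp2, Timp3 and Adamts1 were each lower in all 3 S day 7 libraries than in all 3 US day 7 libraries, with log2 fold changes of S over US of -0.30 ± 0.10, -0.59 ± 0.20 and -0.64 ± 0.20 and adjusted p of 0.275, 0.264 and 0.236 in edgeR. Mmp14 lay on the other side, with all S day 7 libraries above all US day 7 libraries and a log2 fold change of 0.31 ± 0.17. The clock score given above also separated these groups, at -0.63 to -0.25 in S and 1.57 to 2.27 in US day 7 lungs, and its part was not tested. On day 28 Mmp3 in L lungs lay below US lungs by a log2 fold change of -0.88 ± 0.29 (adjusted p 0.192 in edgeR) and below S lungs by -0.72 ± 0.29, with no overlap in either case. The share of all genes without overlap between materials was not computed. For Timp1 on day 1, L over US was -1.49 ± 0.61, and without US day 1 replicate 1 it turned to 0.19.

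How far the effects differed between days was tested as an interaction. None of the 10 genes passed in the 6 such tests in edgeR, and 15 of 60 had an unadjusted p under 0.05, against 12.1% of the tests of all genes. Of all genes, 0.136% passed for US between day 7 and day 1, 0.0473% for US between day 28 and day 1, 0% for S between day 7 and day 1, 0.195% for S between day 28 and day 1, 0% for L between day 7 and day 1 and 0.243% for L between day 28 and day 1. The smallest adjusted p was 0.102, for Timp3 in S lungs, whose log2 fold change over D was lower by -0.99 ± 0.28 on day 28 than on day 1. The effect of US on Timp1 was -3.01 ± 0.92 on day 7 relative to day 1 (adjusted p 0.139 in edgeR), and -1.32 without US day 1 replicate 1 (0.476). For Mmp3 in L lungs the value on day 28 relative to day 1 was -1.30 ± 0.40 (0.209). These tests share the day 1 libraries of D and of each material.

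D lungs differed between days in part of these genes. Timp3 averaged 759 ± 103.9 CPM in D day 7 lungs, against 1048 ± 119.01 CPM in D day 1 lungs (SD, n = 3 each), with a log2 fold change of -0.47 ± 0.20 and an adjusted p of 0.155 in edgeR. It averaged 1067 ± 16.2 CPM in D day 28 lungs, a log2 fold change of 0.49 ± 0.20 over D day 7 lungs with an adjusted p of 0.0758. Between those days 15.6% of all genes passed, against 0% for D day 7 over D day 1 and 0.0769% for D day 28 over D day 1. None of the 10 genes passed in any of the 3, and 4 of 30 tests had an unadjusted p under 0.05, against 21.5% of the tests of all genes. D day 7 replicate 1, the lowest library for Timp3 and Mmp19, was extreme for 22.3% of all genes tested. The 8 listed fat cell markers, of which 7 passed the filter, summed to 48.4 to 79.5 CPM in D day 7 lungs. They summed to 25.1 to 27.1 CPM in D day 1 lungs and 21.8 to 31.2 CPM in D day 28 lungs.

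The mean of US, S and L was also compared with D, a contrast chosen after seeing the data. None of the 10 passed in edgeR on any day, while 0.0414% of all genes passed on day 1, 0.337% on day 7 and 0.893% on day 28. On day 1 the log2 fold change was 1.99 ± 0.57 for Timp1 (adjusted p 0.142) and 0.65 ± 0.17 for Timp3 (0.111). An unadjusted p under 0.05 was reached by 5 genes on day 1 (15.8% of all genes), 0 on day 7 (13.3%) and 1 on day 28 (12.9%). That gene was Adamts1, with a log2 fold change of -0.44 ± 0.16 and an adjusted p of 0.201.

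Calls for these genes appeared only under other processing, and a few of them recurred. Timp1 in US day 1 lungs passed in DESeq2 (adjusted p 0.00813, with 2.35% of all genes called) and without the filter on low counts (0.0113, 0.465%). Timp3 in S day 1 lungs passed in DESeq2 (0.00948, 1.68%), without the filter (0.0428, 0.105%) and in a fit of S and D day 1 libraries alone (0.0207, 7.53%). In US day 7 lungs Timp3 passed in DESeq2 (0.046, 8.94%). Mmp3 was lower in L day 28 lungs in a fit of the compared groups alone, against D (0.0176, 5.14%) and against US (0.0246, 0.737%). The same kind of fit called Timp3 and Mmp11 for S between day 28 and day 1 (16.3% of all genes), Timp3 for D day 28 over D day 7 (15.5%) and Adamts1 for the 3 materials together on day 28 (2.97%). DESeq2 called Timp3 for S between day 28 and day 1 (2.8%) and Timp1 and Timp3 for the 3 materials together on day 1 (1.2%), and the fit with no filter called Timp3 in the last of these (0.197%).

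Single libraries mattered on day 1 and day 7. Without US day 1 replicate 2, the lowest of the 3 US libraries for these genes, Timp1, Timp3, Mmp3 and Mmp19 all passed in US day 1 lungs, with log2 fold changes of 3.22, 0.88, 0.91 and 0.94 and 5.17% of all genes called. Without US day 1 replicate 3 Timp1 passed alone (0.67%). Without S day 1 replicate 1 Timp1 and Timp3 were higher and Mmp15 was lower in S day 1 lungs, at 2.48, 0.93 and -0.74 (2.94%), and Timp3 passed for S between day 28 and day 1 (1.85%). The day 1 contrast of the 3 materials together called Timp1 and Timp3 without US day 1 replicate 2 (1.25%) or S day 1 replicate 1 (1.25%), and Timp3 without L day 1 replicate 3 (1.16%).

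Without D day 7 replicate 3 Timp2 and Timp3 passed in US day 7 lungs (13%) and in D day 28 over D day 7 lungs (25.6%), and Timp2 was lower in D day 7 than in D day 1 lungs (9.85%). Without US day 7 replicate 2 Timp3 passed in US day 7 lungs (17.7%). Each of these shares of all genes was larger than the share with all libraries.

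Across the 36 libraries the genes fell into sets whose levels went together once group means were removed. The libraries share handling and tissue make-up, so Pearson r is given as a description over n = 36. Among them is US day 1 replicate 1, the highest for Timp1, Timp3, Mmp3 and Mmp19 and the lowest for Mmp2 and Mmp11. The r was not computed without that library. Timp1, Timp3, Mmp3 and Mmp19 had r of 0.71 to 0.82 with each other. Mmp2, Mmp11 and Mmp15 had r of 0.63 to 0.72 with each other, and Timp1 with Mmp11 had -0.73. Timp2 went with Mmp14 at 0.71 and with Adamts1 at 0.59. A score of 11 fibroblast markers had r of 0.80 with Mmp2, 0.68 with Mmp15, 0.62 with Timp2 and 0.56 with Mmp14, and -0.16 with Timp3. A score of T and NK cell markers had r of -0.86 with Timp3, -0.83 with Mmp3, -0.70 with Mmp19 and -0.69 with Timp1. In the same order the r was -0.84, -0.69, -0.69 and -0.74 with B and plasma cell markers. With neutrophil markers it was 0.67, 0.60, 0.54 and 0.63. Macrophage markers also gave positive values, of 0.49, 0.49, 0.66 and 0.60 for particle-laden macrophages and 0.47, 0.33, 0.57 and 0.24 for alveolar macrophages.

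**Figure D5:**
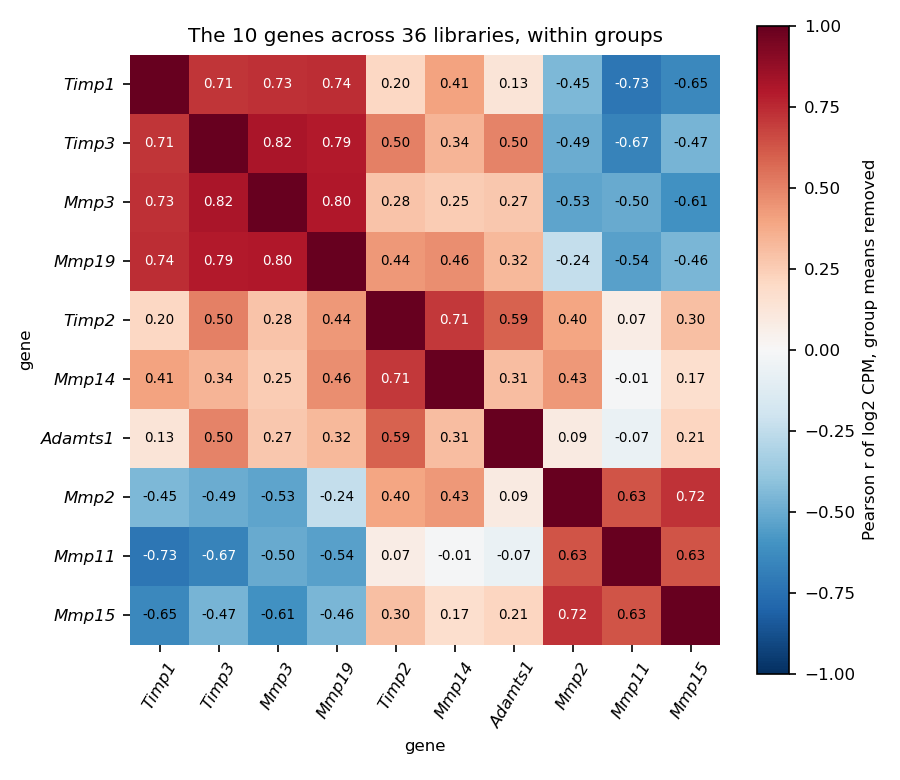
Pearson r between each pair of the 10 genes over 36 libraries, on log2 CPM with the mean of each group removed, red for positive and blue for negative. Timp1, Timp3, Mmp3 and Mmp19 form 1 positive set at the upper left, and Mmp2, Mmp11 and Mmp15 form another at the lower right.

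The genes most like each of them were taken by Pearson r of log2 CPM over the 36 libraries, group differences included. For Timp1 they were Tgfbi, Lcn2 and Pgk1 (r of 0.92 to 0.93), and for Timp3 Tulp4, Capn2 and Fmo2 (0.96 each). For Timp2 they were Polr2a, Sparcl1 and Erg (0.90 to 0.94). Mmp3 went with Suox, Prss23 and Tmem43 (0.84 to 0.86), and Mmp19 with Nsf, Nars and Abcb1b (0.86 to 0.88). Mmp2 went with Cpxm1, Ces2e and Fbln5 (0.83 to 0.87), Mmp11 with Thbs3, Cxx1c and Ces2e (0.82 to 0.87) and Mmp15 with Cxx1c, Lgi3 and Spns2 (0.81 to 0.87). Mmp14 had Eln, Cfl1 and Adamts2 (0.66 to 0.73), and Adamts1 had Ppp1r10, Slc25a25 and St8sia2 (0.61 to 0.73) with lower values.

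Other genes of matrix turnover were read from 8 lists. Of the other matrix metalloproteinases 9 of 17 were measured. Mmp12, the macrophage elastase, was the called gene among them against D: it rose to 128.6 ± 81.7 CPM in L day 7 lungs, against 5.39 ± 1.62 CPM in D day 7 lungs (adjusted p 4.82e-06 in edgeR), and to 265 ± 148 CPM in L day 28 lungs, against 7.52 ± 1.27 CPM in D day 28 lungs (1.86e-07; SD, n = 3 each). The other 8 did not pass in any comparison with D.

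Of the ADAMTS proteases and related proteins 21 of 23 were measured. Adamts5, an aggrecan-cutting protease, had 17.2 ± 1.56 CPM in L day 28 lungs, against 29.6 ± 2.33 CPM in D day 28 lungs (adjusted p 0.000303 in edgeR). D lungs had 19.3 ± 0.697 CPM on day 1 and 18.5 ± 0.666 CPM on day 7. The D day 28 level passed as higher than each of these (0.0345 and 0.00728 in edgeR). Adamts8 had 24.6 ± 0.958 CPM in US day 7 lungs, against 18.03 ± 2.32 CPM in D day 7 lungs (0.0494). Its level in D day 28 lungs was 23.7 ± 1.62 CPM, which also passed as higher than in D day 7 lungs (0.0345 in edgeR). Of 9 ADAM proteases, all measured, Adam15 fell to 79.8 ± 7.94 CPM in US day 7 lungs, against 123.2 ± 18.3 CPM in D day 7 lungs (0.0283).

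Of 21 inducers of inhibitors and metalloproteinases, which hold cytokines, their receptors and immediate early factors, 20 were measured. In S day 7 lungs Tnf rose to 2.06 ± 0.75 CPM, against 0.355 ± 0.241 CPM in D day 7 lungs (adjusted p 0.0103 in edgeR), and Osm, a cytokine of the interleukin 6 family, rose to 9.83 ± 3.99 CPM, against 3.04 ± 0.68 CPM (0.0263). In US day 1 lungs Lifr, a receptor subunit of that family, fell to 110.9 ± 13.2 CPM, against 152 ± 3.55 CPM in D day 1 lungs (0.0484), and 0 of the other 19 passed. Without US day 1 replicate 1 the log2 fold change of Lifr was -0.37 with an adjusted p of 0.307, and -0.46 with that library. The median log2 fold change of the list on day 1 was 0.70 in US, 0.41 in S and 0.57 in L lungs, against medians of 0.01, -0.02 and 0.01 over all genes tested. An unadjusted p under 0.05 with a higher level was reached by 14 of the 20 in US (9.36% of all genes), 6 in S (11.3%) and 10 in L day 1 lungs (2.86%). The US count was 4 of 20 without US day 1 replicate 1, beside 3.6% of all genes, and the median was 0.34.

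Among the 8 activators of metalloproteinase precursors Klk10, a kallikrein protease, rose to 1.82 ± 0.485 CPM in S day 7 lungs, against 0.451 ± 0.253 CPM in D day 7 lungs (adjusted p 0.0393 in edgeR). None of the 13 other protease inhibitors and clearance receptors, the 9 genes of the plasminogen system or the 22 measured of 24 matrix substrates passed in a comparison with D.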

How the data were processed

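Whole-lung RNA of 36 libraries in 12 groups of 3 was analysed from the authors' deposited gene counts, which are whole numbers per gene and not normalized. Levels per length are TPM as deposited in the authors' abundance tables, which also hold FPKM and coverage that the authors computed and that were not used here. The submitters' processing notes name bcl2fastq 2.19.1.403, CASAVA, STAR 2.5.1b, featureCounts 1.5.1 and StringTie 1.3.3, and the builds GRCh37 and GRCm38. Which annotation release was counted against, and with which strand setting, is not given in the sources used here. Carbon nanotube samples and day 90 were not analysed here.

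Counts were scaled by TMM (factors 0.932 to 1.06), filtered by expression over the 12 groups and tested in edgeR 4.0.16 (R 4.3.3) with the quasi-likelihood F test, 1 fit of all 36 libraries, and Benjamini-Hochberg adjustment over 16903 genes with a threshold of 0.05. There were 27 comparisons, and 3 that pool the materials were added after seeing the data. Alternatives used limma 3.58.1 on log2(TPM + 1) and log2(TPM + 0.1) (15625 genes averaging 1 TPM or more), DESeq2 1.42.0, other scaling and filters, and each library left out in turn. Replicate numbers did not pair the samples. The named genes, lists and comparisons were chosen with earlier results of these data known. All 10 genes are described, other genes of the lists are named where they passed the threshold, and the 3 genes most like each member are named by Pearson r among 12135 genes with a mean of at least 5 CPM. Depth ranged from 16154696 to 80566751 counts. Counting error was not computed, and narrow margins between groups at low counts may lie within it.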

Additional observations from a re-analysis of the deposited data

Results flagged for a closer look

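For Mmp3 the difference between L and US lay on opposite sides on 2 days: every L day 7 library was above every US day 7 library, with a log2 fold change of L over US of 0.28, and every L day 28 library was below every US day 28 library, at -0.88. For Timp3 the L libraries lay all above D on day 7, with a log2 fold change of 0.29, and all below D on day 28, at -0.31. Against S, the L libraries of Timp3 likewise lay all above on day 7 (0.31) and all below on day 28 (-0.14). The difference between the days was not tested in any of the 3 cases. The cases were picked for this pattern, and its share over all genes was not computed. In single comparisons, L lay all above D on day 7 for 4.56% of all genes and all below D on day 28 for 16.4%.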

How the results depend on the processing

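With 8 other settings and each of 36 libraries left out in turn, 812 values were recomputed for the 49 single-gene results with an unadjusted p under 0.05: 776 kept their direction and side of the threshold, 35 newly passed it and 1 reversed, Timp1 for L day 1 over US day 1, at 0.19 without US day 1 replicate 1 (the lowest value with a library left out was -1.96). The number of the 10 genes called was 0 with all libraries in every comparison, and also with RLE scaling, the replicate block, thinning of the deepest library and limma on either TPM scale. It became 1 without the filter on low counts (US day 1, S day 1 and the 3 materials together on day 1), 1 in fits of only the groups compared (S day 1, L day 28 over D, L day 28 over US day 28, D day 28 over D day 7 and the 3 materials together on day 28) and 2 there for S between day 28 and day 1. With DESeq2 it was 1 for US day 1, S day 1, US day 7 and S between day 28 and day 1, and 2 for the 3 materials together on day 1. With 1 library left out the count ran from 0 to 4 for US day 1, 0 to 3 for S day 1, 0 to 2 for US day 7, for D day 28 over D day 7 and for the 3 materials together on day 1, and 0 to 1 for S between day 28 and day 1 and for D day 7 over D day 1, and stayed at 0 in the other comparisons. The causes were not tested.

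Replicate numbers did not pair the samples: in 1 of 21 comparisons of 2 groups did every same-numbered pair correlate above 0.1. With the replicate block the count of calls was 0 in every comparison, and Timp1 in US day 1 over D day 1 lungs had a log2 fold change of 2.69 with an adjusted p of 0.0883. The spread within groups limits these values. There are 3 libraries a group, and 4 libraries were extreme for 18% to 26.6% of the genes tested. These were US day 1 replicate 1, S day 1 replicate 3, D day 7 replicate 1 and L day 7 replicate 1.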
